A study of Mus musculus with 12 samples.

Results

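The HGF by genotype interaction in mouse liver is described here: for every gene, the HGF effect in livers with a hepatocyte knockout of Met minus the HGF effect in control livers. It was taken over all 12 of the 12 arrays of the series, 3 in each of 4 groups, with the groups as deposited. The groups were Met knockouts given HGF, Met knockouts without HGF, controls given HGF and controls without HGF. All mice carried loxP-flanked alleles of Met, controls included. The knockouts also carried a Cre transgene, either Alfp-Cre, which is active in the embryonic liver, or Alb-Cre, which acts after birth, and the labels do not say which one each array represents. HGF was 2 µg of recombinant mouse protein given intraperitoneally 2 h before the liver was taken, and it is not settled by the labels whether the mice without HGF had received a saline injection. No ages are given. Each array was hybridised with whole-liver RNA of 1 animal, so fewer cells of a type and less RNA per cell cannot be told apart. A positive interaction means that the HGF difference was higher in knockouts than in controls, and a negative one that it was lower.

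HGF, made in the liver mainly by stellate and endothelial cells, binds the receptor tyrosine kinase Met on hepatocytes. Met passes the signal through Gab1, Grb2, ERK, PI3 kinase and Stat3, which switch on immediate early genes such as Jun and Egr1 and then genes that feed back on the pathway, such as the Dusp phosphatases. Kupffer, endothelial and stellate cells are not the cells that albumin-driven Cre targets.

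Before the single genes, the arrays themselves need a description, because the knockout arrays did not agree within their groups. Of 23 measured NF-kappaB targets and chemokines, the arrays of knockouts given HGF had 2, 0 and 21 genes nearer to the mean of HGF-treated controls than to that of untreated controls, for the arrays numbered 1, 2 and 3. Knockouts without HGF had 0, 23 and 0. All 23 were nearer to the HGF-treated mean on each array of controls given HGF, and none on any array of controls without HGF. Array 2 was thus the odd one among knockouts without HGF, and array 3 among knockouts given HGF. Over these genes the pair numbered 2 ran against the HGF difference of the controls, and the pair numbered 3 ran with it. In clock genes such as Usp2, array 2 was instead the odd one in both knockout groups. Whether labels were exchanged was not tested; they were kept as deposited, and every knockout HGF effect and interaction rests on them. Results are given for all 12 arrays and, for most, without both knockout arrays numbered 2, a choice made after their values were seen. The median SD within a group was 0.21 in knockouts given HGF and 0.24 in knockouts without HGF, against 0.19 in controls given HGF and 0.11 in controls without HGF, on the log2 scale.

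No gene passed the test for the interaction in all 12 arrays. Of 6683 tested probe sets, 0 had a Benjamini-Hochberg adjusted p under 0.05 in limma, and the smallest adjusted p was 0.211. At an unadjusted p under 0.05 there were 724 probe sets, or 10.8%, with 387 positive (5.79%) and 337 negative (5.04%). The median interaction over all tested probe sets was 0.07 and the median standard error was 0.25. The knockout term held 0 calls (127 probe sets, or 1.9%, at an unadjusted p under 0.05), while the control term held 27 calls (0.404%), 20 higher (0.299%) and 7 lower (0.105%) with HGF. The control effect was the larger of the 2 terms in 89.9% of the 337 negative and 84.8% of the 387 positive interactions, and in 70.1% of all tested probe sets. An interaction shares its arrays with both terms, so these shares describe where the numbers come from and are no independent result.

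Without both knockout arrays numbered 2, 24 probe sets were called (0.359%), 11 positive (0.165%) and 13 negative (0.195%), and 867 (13%) had an unadjusted p under 0.05. The knockout term then held 278 calls (4.16%) and the control term 545 (8.16%). The knockout effect was the larger term in 20 of the 24, and in 3540 of all 6683 tested probe sets in this fit. Leaving out both knockout arrays numbered 3 gave 1 call, and both numbered 1 gave 0. With all 12 arrays weighted by their fit to their groups, 104 interactions were called (1.56%). The lowest weights were 0.265 for knockout array 2 without HGF, 0.375 for control array 1 with HGF, 0.404 for knockout array 3 with HGF and 0.496 for knockout array 2 with HGF, so the weights did not single out the pair numbered 2. Of the 724 probe sets in the fit to all arrays, 406 kept an unadjusted p under 0.05 with the same sign, which is 56.1% of the first set and 46.8% of the second. Because these arrays were left out for their own values, the calls of the 10-array fit describe those arrays and are not independent support. The scatter of both HGF effects shows the 2 fits side by side.

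**Figure D1:**
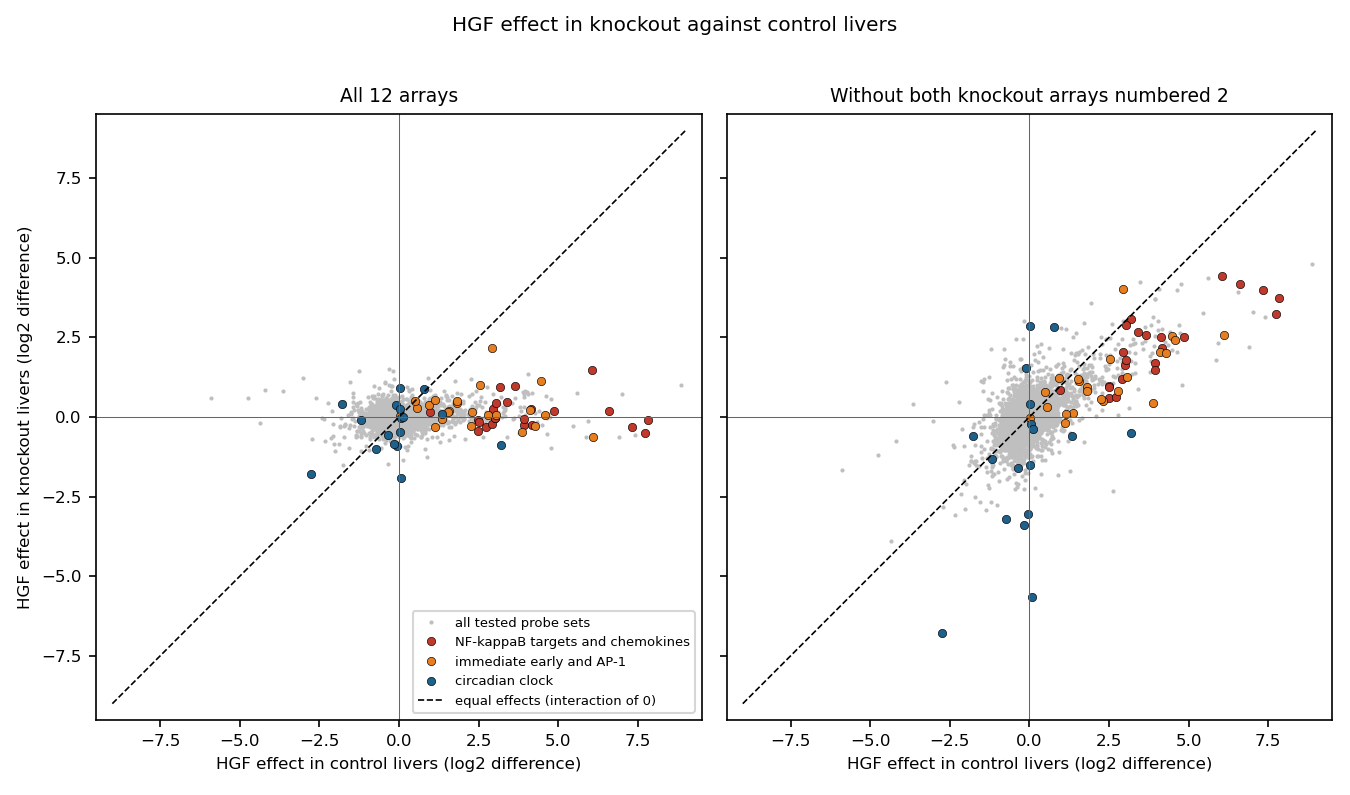
HGF effect in knockout livers (vertical axis) against that in control livers (horizontal axis), both as log2 differences, for 6683 tested probe sets and 3 gene lists. With all 12 arrays the NF-kappaB genes lie along the horizontal axis near a knockout effect of 0; without both knockout arrays numbered 2 they lie above 0 and below the line of equal effects, and several clock genes lie near a control effect of 0 with knockout effects down to -5.64.

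The smallest unadjusted p values mostly belonged to genes in which the knockout arrays numbered 2 did not stand against the others. Wwtr1, which encodes the Hippo pathway coactivator TAZ, had log2 values of 5.20, 5.70 and 5.74 in knockouts given HGF and 6.12, 6.02 and 6.36 in knockouts without HGF, against 6.15, 6.53 and 6.38 in controls given HGF and 5.21, 5.39 and 4.86 in controls without HGF; values are listed in the order of the arrays numbered 1, 2 and 3 throughout. Within each genotype the HGF groups did not overlap, and the order was opposite: the HGF arrays were the lower ones in knockouts and the higher ones in controls. Its interaction was -1.82 (95% interval -2.41 to -1.23, adjusted p = 0.211), made of -0.62 in knockouts and 1.2 in controls. Leaving out any 1 array kept it between -1.94 and -1.65, and without both knockout arrays numbered 2 it was -1.96 (adjusted p = 0.0381). Sertad2, a regulator of E2F-dependent transcription, had 6.91, 7.39 and 7.14 in knockouts given HGF and 7.37, 7.35 and 7.29 in knockouts without HGF, against 7.58, 7.85 and 7.53 in controls given HGF and 6.62, 6.5 and 6.77 in controls without HGF. All 6 knockout arrays of Sertad2 lay between the 2 control groups. Its interaction was -1.21 (-1.65 to -0.78, adjusted p = 0.211) with all arrays and -1.33 (adjusted p = 0.0381) without the 2.

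Csrp2, which encodes a LIM-domain protein of the cytoskeleton, had 8.22, 8.22 and 8.28 in knockouts given HGF and 8.27, 8.73 and 8.73 in knockouts without HGF, against 8.63, 8.57 and 8.39 in controls given HGF and 7.72, 7.58 and 7.75 in controls without HGF. Only the controls without HGF stood clear of the other 3 groups. The interaction of Csrp2 was -1.18 (-1.60 to -0.76, adjusted p = 0.211), and -1.09 (adjusted p = 0.0813) without the 2 arrays. Nrg4, a ligand of the receptor ErbB4, had 5.09, 5.41 and 6.17 in knockouts given HGF and 4.80, 5.51 and 5.90 in knockouts without HGF, against 6.95, 5.87 and 5.13 in controls given HGF and 2.80, 2.97 and 2.85 in controls without HGF. Here too the controls without HGF were the one low group, and both knockout groups overlapped with the HGF-treated controls. Its interaction was -2.96 (-4.35 to -1.57), and -2.83 without the 2 arrays. Plk3, a stress-induced polo-like kinase, had 7.58, 5.39 and 7.23 in knockouts given HGF and 7.56, 7.67 and 6.33 in knockouts without HGF, against 7.81, 7.28 and 7.99 in controls given HGF and 4.52, 3.14 and 3.79 in controls without HGF. Every knockout array of Plk3 was above every control array without HGF. The interaction was -4.34 (-6.16 to -2.51) and -3.42 without the 2 arrays. The numbers in the array descriptions run from 1 to 6 in controls and from 7 to 12 in knockouts. Whether they give an order of processing is not known here. If they do, a level that sets all knockout arrays apart from untreated controls cannot be told apart from that order.

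Others of this kind were transcription regulators and signalling genes. Phlda1, a pleckstrin-homology-like protein induced by growth factors, had 10.34, 9.83 and 9.95 in knockouts given HGF and 10.23, 10.89 and 9.64 in knockouts without HGF, against 10.34, 11.51 and 11.06 in controls given HGF and 8.54, 8.75 and 8.76 in controls without HGF. Knockout arrays of Phlda1 were again all above the untreated controls and reached into the range of the treated ones. Its interaction was -2.5 with all arrays and -2.08 without the 2. Klf7, a Krüppel-like transcription factor, had an interaction of -1.55 and of -1.37 without the 2 arrays. Bach1, a repressor of heme oxygenase, had -1.95 and -1.69, and Trib1, a pseudokinase that directs the degradation of C/EBP proteins, had -1.44 and -1.25. Zfp275, a zinc finger gene, had -1.33 and, without the 2 arrays, -1.54 (adjusted p = 0.0330). Each of these 10 interactions kept its sign in all 12 fits that left out 1 array.

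**Figure D2:**
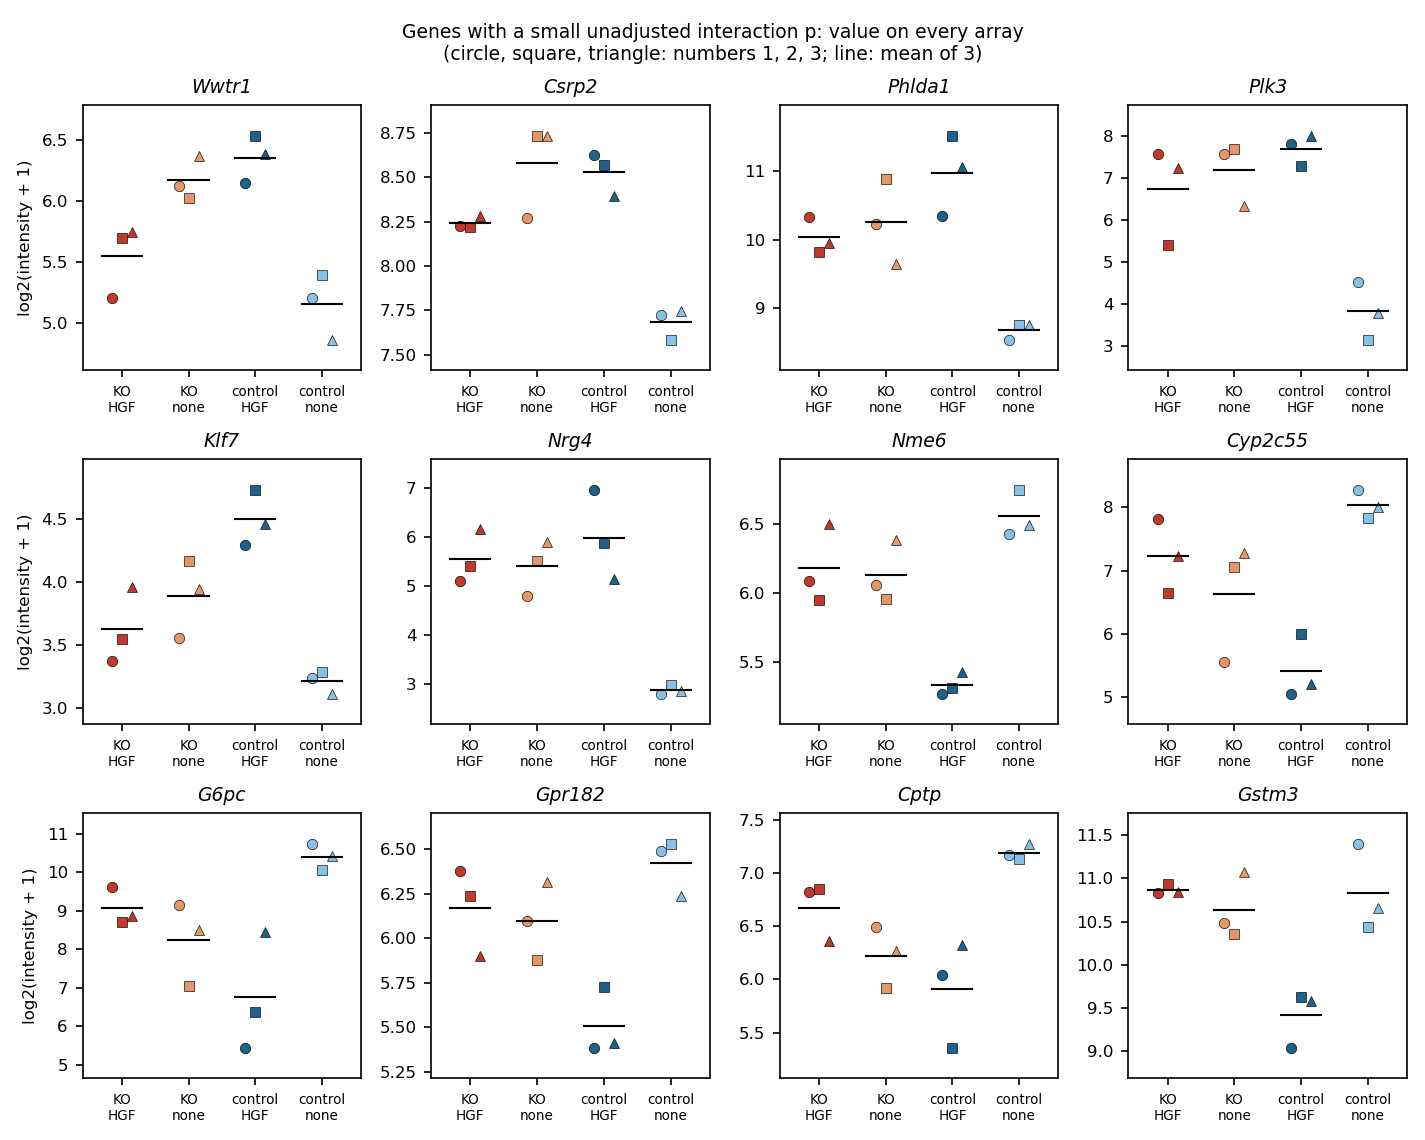
log2(intensity + 1) of 12 genes on each array, by group; circles, squares and triangles are the arrays numbered 1, 2 and 3 and the line is the mean of 3. In Nme6 the knockout groups lie together whether or not HGF was given, while the control groups are apart. In Wwtr1 the HGF arrays are the lower ones in knockouts and the higher ones in controls.

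Among the positive interactions of small p were genes lower with HGF in controls, with overlapping knockout groups. Nme6, a member of the nucleoside diphosphate kinase family, had 6.09, 5.95 and 6.5 in knockouts given HGF and 6.06, 5.96 and 6.39 in knockouts without HGF, against 5.27, 5.31 and 5.43 in controls given HGF and 6.43, 6.75 and 6.5 in controls without HGF. The knockout groups overlapped fully and the control groups did not overlap. The interaction of Nme6 was 1.27 (0.75 to 1.79, adjusted p = 0.211), and 1.30 without the 2 arrays. Top3b, a topoisomerase that acts on DNA and RNA, had 5.40, 5.20 and 5.23 in knockouts given HGF and 5.27, 5.18 and 4.91 in knockouts without HGF, against 5.31, 5.19 and 5.18 in controls given HGF and 5.88, 5.95 and 5.95 in controls without HGF. In Top3b all 6 knockout arrays lay below every control without HGF. Its interaction was 0.85, and 0.92 without the 2 arrays. Cyp2c55, a cytochrome P450 of the Cyp2c family, had 7.82, 6.65 and 7.24 in knockouts given HGF and 5.56, 7.06 and 7.28 in knockouts without HGF, against 5.06, 5.99 and 5.22 in controls given HGF and 8.27, 7.82 and 8.0 in controls without HGF. Its knockout groups overlapped, with 1 low array among those without HGF. The interaction was 3.21 (1.79 to 4.62), and 3.71 without the 2 arrays. Cptp, a transfer protein for ceramide 1-phosphate, had 1.74 and 1.49, and Rai14, an ankyrin-repeat protein of the actin cytoskeleton, had 0.90 and 0.93. Pgm3, an enzyme on the way to UDP-GlcNAc, had 0.84 and 0.80, Gmppb, which makes GDP-mannose, had 1.08 and 1.13, and Ostc, a subunit of the oligosaccharyltransferase, had 0.81 and 0.90.

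G6pc, the glucose-6-phosphatase that releases glucose from the hepatocyte, had the largest positive interaction among the genes of small p. It had 9.63, 8.71 and 8.85 in knockouts given HGF and 9.16, 7.04 and 8.49 in knockouts without HGF, against 5.44, 6.37 and 8.45 in controls given HGF and 10.73, 10.06 and 10.42 in controls without HGF. All 6 knockout arrays were below the untreated controls, and the treated controls reached from far below the knockouts to within their range. The interaction of G6pc was 4.48 (2.23 to 6.73, unadjusted p = 0.00121, adjusted p = 0.265), made of 0.83 in knockouts and -3.65 in controls, and 4.06 without the 2 arrays. Pck1, the other rate-setting enzyme of gluconeogenesis, had an interaction of opposite sign, -0.84 (-1.58 to -0.10), and -0.66 without the 2 arrays.

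Another 4 metabolic genes had positive values above 4 that were lower without the knockout arrays numbered 2. G0s2, an inhibitor of the triglyceride lipase Pnpla2, had 9.57, 8.75 and 4.26 in knockouts given HGF and 8.48, 3.71 and 8.66 in knockouts without HGF, against 4.10, 2.32 and 3.04 in controls given HGF and 8.29, 9.23 and 9.65 in controls without HGF. A single array in each knockout group was low, number 3 with HGF and number 2 without, and the other 4 were level with untreated controls. Its interaction was 6.48 (1.76 to 11.21) with all arrays and 4.25 without the 2. Ppp1r3c, a glycogen-targeting subunit of protein phosphatase 1, had 8.61, 8.89 and 5.62 in knockouts given HGF and 8.08, 4.72 and 8.5 in knockouts without HGF, against 4.53, 3.99 and 4.98 in controls given HGF and 8.95, 9.05 and 9.73 in controls without HGF. The low knockout arrays were those of G0s2. The interaction of Ppp1r3c was 5.35, and 3.57 without the 2 arrays. Nr0b2, the nuclear receptor SHP that represses bile acid synthesis, had 5.06 and 3.44. Angptl8, an insulin-induced inhibitor of lipoprotein lipase, had 4.24 and 2.92, with an interval of -0.18 to 6.02 without the 2 arrays. Arrdc3, an arrestin-domain gene, shows how far such a value can rest on these arrays: it was 4.18 with all arrays and 0.46 (-4.10 to 5.02) without the 2.

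Many immediate early genes had a negative interaction, though none was called. The gene lists here and below were chosen with earlier results of these data known. Their counts describe these arrays and are no independent support. Of the 36 genes of the immediate early and AP-1 list on the array, 30 had a negative interaction, 15 of them at an unadjusted p under 0.05, against 3.67% of all 16475 probe sets without a filter on low values; 1 gene was positive at that p, against 5.19%. The list's median interaction was -0.69 over these 36, against 0.03 over all probe sets, and -1.45 over the 23 members that passed the filter. Without the 2 arrays 25 of the 36 were negative, 12 of them at an unadjusted p under 0.05 (4.44% of all probe sets) and 0 positive ones (4.88%), with a median of -0.42 over the 36 and -1.25 over the 23. Junb, a partner in AP-1, had 7.59, 6.29 and 7.81 in knockouts given HGF and 5.00, 8.0 and 5.31 in knockouts without HGF, against 8.24, 8.60 and 8.64 in controls given HGF and 3.68, 4.01 and 4.39 in controls without HGF. The knockout arrays spread over most of the distance between the control groups and all lay between them. The interaction of Junb was -3.33 (-5.49 to -1.18, adjusted p = 0.329); without the 2 arrays it was -1.92 (-2.62 to -1.21, adjusted p = 0.0514), with HGF effects of 2.55 in knockouts and 4.46 in controls. Atf3, a stress-induced bZIP factor, had 3.34, 3.06 and 4.57 in knockouts given HGF and 3.29, 4.52 and 2.97 in knockouts without HGF, against 5.31, 6.36 and 5.64 in controls given HGF and 2.99, 2.83 and 3.13 in controls without HGF. No knockout array of Atf3 reached the lowest HGF-treated control. Its interaction was -2.72, and -1.96 without the 2 arrays.

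Gadd45g, a stress sensor that activates p38 and JNK kinases, had the lowest interaction among the tested members, -6.72 (-11.55 to -1.89) with all arrays and -3.53 (-5.21 to -1.86) without the 2. Csrnp1, a nuclear protein induced by growth factors and cytokines, had -2.16 and -1.82. Klf6, a Krüppel-like factor, had -2.54 and -1.68, and Myc, which drives growth genes, had -1.45 and -1.05. Jun had an interval that included 0 in both fits, with -1.54 (-3.65 to 0.58) and -0.69 (-2.13 to 0.74). Egr1, a zinc finger factor downstream of ERK, had -0.78 (-4.24 to 2.69) with all arrays and a value of opposite sign, 1.07 (-1.45 to 3.60), without the 2. Among genes of the ERK feedback list, 10 of 16 on the array were negative. Of these, 6 had an unadjusted p under 0.05, against 3.67% of all probe sets. Without the 2 arrays 10 were negative and 2 of these had such a p, against 4.44%. Dusp1, a phosphatase of MAP kinases, had -1.41 (-2.65 to -0.18) and -1.14 (-2.35 to 0.07), while Dusp6, the ERK phosphatase of the cytoplasm, had 1.21 (-0.87 to 3.29) and 0.69. Errfi1, which inhibits the EGF receptor family, had -1.08 and -0.50.

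NF-kappaB targets and chemokines held several of the largest negative interactions, although genes of other lists, such as Mt2 and Gadd45g, reached similar values. All 28 listed genes on the array had a negative value, 21 of them at an unadjusted p under 0.05 against 3.67% of all probe sets; the median was -2.99 over the 28 and -3.07 over the 23 that passed the filter. In the fit without the 2 arrays 27 of the 28 were negative, with a median of -1.53 over the 28 and 5 at an unadjusted p under 0.05, against 4.44% of all probe sets; the median over the 23 was -1.62. None was called in either fit. In controls all 28 were higher with HGF at an unadjusted p under 0.05, and the interaction contains that control effect. Cxcl2, a neutrophil-attracting chemokine, had 2.66, 1.85 and 8.27 in knockouts given HGF and 2.42, 9.83 and 2.04 in knockouts without HGF, against 9.44, 11.11 and 9.38 in controls given HGF and 2.29, 2.14 and 2.31 in controls without HGF. A single array of each knockout group was high, number 3 with HGF and number 2 without, and the other 4 were at the level of untreated controls. Its interaction was -8.23 (-14.69 to -1.78, adjusted p = 0.389), and -4.50 (-8.69 to -0.30, adjusted p = 0.356) without the 2 arrays.

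Cxcl1, a chemokine for the same receptor, had 10.94, 7.26 and 11.58 in knockouts given HGF and 7.23, 11.7 and 6.42 in knockouts without HGF, against 11.76, 11.78 and 11.56 in controls given HGF and 6.84, 5.00 and 5.13 in controls without HGF. Unlike in Cxcl2, knockout array 1 with HGF was also high. The interaction of Cxcl1 was -4.57 (-8.91 to -0.24), and -1.62 (-3.27 to 0.03) without the 2 arrays, where the HGF effect was 4.43 in knockouts and 6.05 in controls. The promoters of both chemokines are shown because they carry the kappaB motif that names this list. The letters searched were GGG, any 2 bases and then TTTCC, on both strands; the matches, in capitals, start 89 and 71 bases before the start of Cxcl1 and 97 and 78 bases before that of Cxcl2, and do not overlap. The sequences are the 250 bases before each start, from RefSeq on GRCm38.p6, plus strand, chr5:90890995-90891244 for Cxcl1 and chr5:90903649-90903898 for Cxcl2.
Cxcl1: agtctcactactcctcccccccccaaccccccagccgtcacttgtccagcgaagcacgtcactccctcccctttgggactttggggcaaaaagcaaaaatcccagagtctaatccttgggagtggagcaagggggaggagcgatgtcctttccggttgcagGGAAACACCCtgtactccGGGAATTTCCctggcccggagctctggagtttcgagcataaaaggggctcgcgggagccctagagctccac
Cxcl2: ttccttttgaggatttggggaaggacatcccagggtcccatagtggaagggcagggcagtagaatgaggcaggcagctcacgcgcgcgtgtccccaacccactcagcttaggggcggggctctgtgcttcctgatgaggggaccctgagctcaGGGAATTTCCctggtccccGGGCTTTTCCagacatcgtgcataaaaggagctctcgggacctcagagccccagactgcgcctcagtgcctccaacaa
Of 19 measured list genes with a promoter entry, 6 held the motif (31.6%), against 447 of 27025 genes in the table (1.65%). The 6 were Cxcl1, Cxcl2, Nfkb2, Nfkbia, Rel and Tnfaip3. A match is a description of these letters and not a binding site.

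Tnfaip3, the ubiquitin-editing enzyme A20 that shuts off NF-kappaB, had 3.73, 2.44 and 9.59 in knockouts given HGF and 3.41, 10.22 and 2.45 in knockouts without HGF, against 9.85, 10.82 and 9.67 in controls given HGF and 2.31, 2.38 and 2.15 in controls without HGF. The pattern over arrays was that of Cxcl2. Its interaction was -7.94 (-14.43 to -1.44), and -4.10 (-8.38 to 0.18) without the 2 arrays. Nfkbia, the inhibitor that holds NF-kappaB in the cytoplasm, had 9.0, 8.91 and 10.81 in knockouts given HGF and 8.85, 11.27 and 9.05 in knockouts without HGF, against 11.10, 11.39 and 11.06 in controls given HGF and 8.66, 8.62 and 8.74 in controls without HGF. Its interaction was -2.66 (-4.64 to -0.69), and -1.56 (-2.90 to -0.22) without the 2 arrays. Cxcl10, an interferon-induced chemokine for T cells, had -7.63 and -3.33 (-7.59 to 0.93), the adhesion molecule Icam1 had -6.41 and -2.42 (-5.94 to 1.10), and Ccl2, which attracts monocytes, had -4.19 and -2.24 (-3.84 to -0.64). Outside the list, the receptor Tlr2 had an interaction of this size, with -6.33 and -2.64 (-6.86 to 1.59).

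A few neutrophil markers had the array pattern of the chemokines. The summed intensity of the 11 markers on the array was 51.5 to 1283 in knockouts given HGF and 66.7 to 1295 in knockouts without HGF, against 802 to 2897 in controls given HGF and 60.2 to 117 in controls without HGF. Of the 11, 8 had a negative interaction and 3 a positive one. At an unadjusted p under 0.05 there was 1 negative, against 3.67% of all probe sets, and 0 without the 2 arrays, against 4.44%. Only 3 passed the filter, and the neutrophil granule genes Mpo, Elane, Ngp, Camp and Ltf did not; Mpo had no more than 2.27 and Elane no more than 2.43 on any array. S100a8, a calcium-binding protein of neutrophils and monocytes, had 6.77, 2.95 and 8.96 in knockouts given HGF and 4.21, 8.96 and 3.56 in knockouts without HGF, against 9.07, 10.08 and 8.20 in controls given HGF and 5.51, 4.48 and 3.49 in controls without HGF. Its interaction was -3.97 (-9.03 to 1.08), and -0.64 (-3.18 to 1.89) without the 2 arrays. The part of these cells in the chemokine values was not tested.

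**Figure D3:**
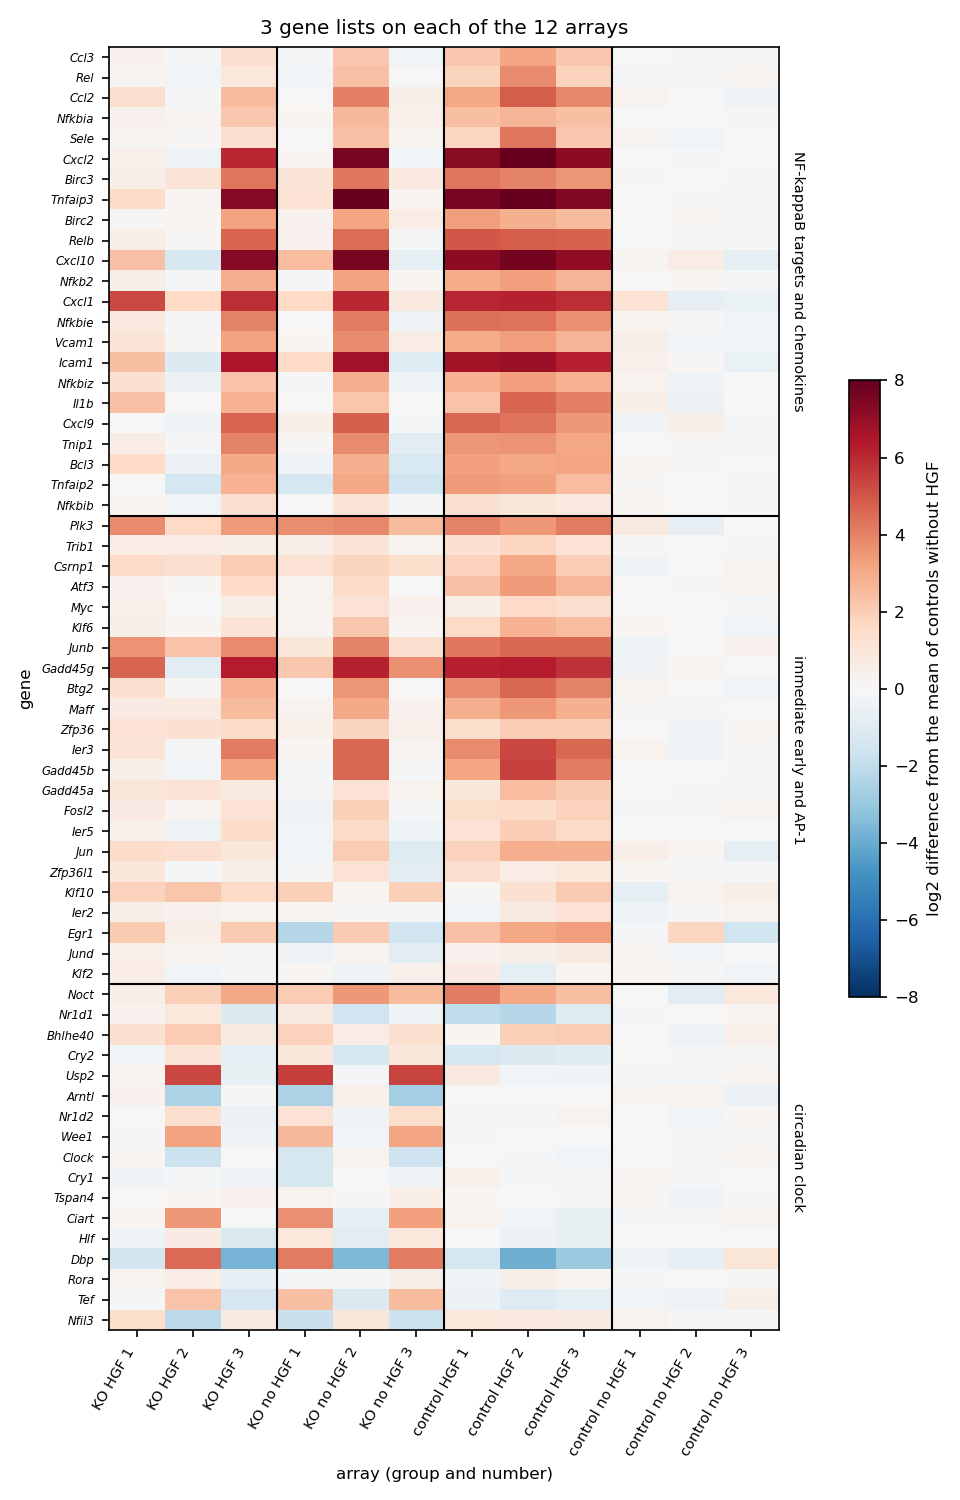
log2 difference from the mean of controls without HGF for the tested genes of 3 lists (rows) on each of the 12 arrays (columns, knockouts left of controls). Knockout array 3 with HGF and knockout array 2 without HGF carry the high NF-kappaB genes of HGF-treated controls; knockout array 2 with HGF and arrays 1 and 3 without HGF share high Usp2, Wee1, Ciart, Dbp and Tef and low Arntl, Clock and Nfil3.

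Metallothioneins, small zinc-binding proteins induced by metals, glucocorticoids and cytokines, were the largest interactions of the glucocorticoid and metallothionein list. Mt1 had 11.86, 8.24 and 12.91 in knockouts given HGF and 9.69, 12.71 and 8.46 in knockouts without HGF, against 12.94, 12.97 and 12.71 in controls given HGF and 7.06, 5.5 and 5.03 in controls without HGF. All 6 knockout arrays were above the untreated controls, and 2 of them, at 12.91 and 12.71, reached the level of treated controls. The interaction of Mt1 was -6.29 (-10.21 to -2.38, adjusted p = 0.321), and -3.70 (-5.61 to -1.79, adjusted p = 0.110) without the 2 arrays, with HGF effects of 3.31 in knockouts and 7.01 in controls. Mt2 had an interaction of -7.84 (-13.59 to -2.10) and of -4.06 (-6.91 to -1.22). Over the 18 list genes on the array, 14 were negative and 6 of those had an unadjusted p under 0.05, against 3.67% of all probe sets; 1 positive gene did, against 5.19%. Without the 2 arrays 13 were negative, with 5 negative and 1 positive at that p, against 4.44% and 4.88% of all probe sets. The median of the 16 tested was then -0.51, against -1.31 with all arrays. Fkbp5, a chaperone induced by glucocorticoids, had -1.40 (-3.62 to 0.82) and -0.52 without the 2 arrays, and Tsc22d3, the glucocorticoid-induced leucine zipper, had 0.31 (-0.77 to 1.38) and 0.16.

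Acute phase genes, which hepatocytes switch on through Stat3 and C/EBP factors, gave interactions that depended on the knockout arrays numbered 2. Of 30 on the array, 26 were negative with all arrays, with a median of -0.97. In the fit without a filter 6 of these had an unadjusted p under 0.05, against 3.67% of all probe sets. Without the 2 arrays 16 of 30 were negative and the median was -0.03. At that p there were then 3 negative (4.44% of all probe sets) and 2 positive (4.88%). Socs3, the feedback inhibitor of Stat3 signalling, had 8.66, 5.36 and 8.92 in knockouts given HGF and 6.18, 8.64 and 5.96 in knockouts without HGF, against 8.86, 9.16 and 8.91 in controls given HGF and 5.27, 4.65 and 4.90 in controls without HGF. Apart from the arrays numbered 2, the knockout groups of Socs3 did not overlap, and neither did the control groups. Its interaction was -3.32 (-6.17 to -0.47) with all arrays and -1.32 (-1.93 to -0.70, adjusted p = 0.0852) without the 2. Saa1, a serum amyloid protein, had 12.54, 8.55 and 13.20 in knockouts given HGF and 10.21, 13.16 and 9.63 in knockouts without HGF, against 13.22, 13.08 and 13.11 in controls given HGF and 9.64 to 12.63 in controls without HGF. The untreated controls of Saa1 were themselves spread over that range. The interaction of Saa1 was -1.28 (-5.28 to 2.71) with all arrays and 1.23 (-1.09 to 3.56) without the 2. Lcn2, an iron-siderophore binder, had -5.73 (-12.11 to 0.65) and -2.19 (-7.24 to 2.86). Interferon targets also depended on these arrays. With all arrays 18 of 22 on the array were negative, 3 of them at an unadjusted p under 0.05 (3.67% of all probe sets). Without the 2 arrays 14 of the 22 were positive. At that p there were then 1 positive (4.88% of all probe sets) and 2 negative (4.44%). Irf1, an interferon-induced transcription factor, stayed negative with -3.64 and -1.83 (-3.60 to -0.07).

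No interaction of the HGF and Met pathway list was called in either fit. Met, the floxed gene, had 6.61, 7.40 and 6.29 in knockouts given HGF and 7.06, 6.68 and 7.18 in knockouts without HGF, against 6.59, 6.78 and 7.02 in controls given HGF and 6.62, 6.84 and 6.77 in controls without HGF. No group stood clear of another, so the array level of Met did not separate the genotypes; where the probes lie relative to the deleted part is unknown here, and the probe set checks the labels only if they lie inside it. The interaction of Met was -0.26 (-1.06 to 0.54, adjusted p = 0.839), and -0.73 (-1.23 to -0.22, adjusted p = 0.223) without the 2 arrays. Hgf did not pass the filter on low values. Of 27 pathway genes on the array, 14 had a negative interaction and 13 a positive one. At an unadjusted p under 0.05 there were 2 negative and 1 positive, against 3.67% and 5.19% of all probe sets. Without the 2 arrays 17 were negative and 10 positive. Of these, 4 negative and 1 positive had such a p, against 4.44% and 4.88% of all probe sets. Gab1, the docking protein of Met, had 0.04 (-1.13 to 1.21) with all arrays and -0.70 (-1.38 to -0.02) without the 2. Grb2, the adaptor that links receptors to Ras, had 0.14 (-0.38 to 0.65) and 0.37. Stat3 had -0.77 (-2.06 to 0.53) and 0.09 (-0.56 to 0.73).

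Several clock genes had an array pattern that some genes outside the list, such as Tubb2a, shared. The median interaction of the 17 tested clock genes was -0.12 with all arrays and -1.25 without the 2, and some were among the calls of the second fit. The circadian clock of the liver runs on Clock and Arntl, which bind E-boxes and switch on the repressors Per, Cry and Ciart and the D-box factors Dbp, Tef and Hlf; Nfil3 represses D-box genes. With all arrays 2 of 17 tested clock genes had an unadjusted p under 0.05, against 10.8% of all tested probe sets. Without the 2 arrays 12 did, 3 positive and 9 negative, against 6.72% and 6.25% of all tested probe sets, and 6 were called. Some of these genes, such as Usp2, passed the filter on low values only through 3 knockout arrays. Without that filter, 23 clock genes were on the array. Of the 23, 3 positive and 11 negative had such a p without the 2 arrays, against 4.88% and 4.44% of all probe sets. The median of the 23 was -0.12 with all arrays and -0.51 without the 2. Usp2, a deubiquitinase with a clock-driven rhythm in liver, had 3.04, 8.15 and 2.20 in knockouts given HGF and 8.31, 2.64 and 8.21 in knockouts without HGF, against 3.56, 2.57 and 2.5 in controls given HGF and 2.73, 2.66 and 3.0 in controls without HGF. The 3 knockout arrays number 2 with HGF and numbers 1 and 3 without, were above 8, and the other 9 arrays were between 2.20 and 3.56. The interaction of Usp2 was -2.0 (-7.23 to 3.23, adjusted p = 0.805) with all arrays and -5.72 (-6.81 to -4.62, adjusted p = 0.00372) without the 2, where the HGF effect was -5.64 in knockouts and 0.08 in controls.

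Ciart, a repressor of Clock and Arntl, had 3.46, 6.75 and 3.29 in knockouts given HGF and 6.98, 2.51 and 6.55 in knockouts without HGF, against 3.59, 3.08 and 2.70 in controls given HGF and 3.18, 3.18 and 3.53 in controls without HGF. The same 3 knockout arrays were high. Its interaction was -0.67 (-4.28 to 2.93) with all arrays and -3.22 (-4.03 to -2.40, adjusted p = 0.0121) without the 2. Its promoter is shown because it holds 3 E-boxes, CACGTG, a palindrome that reads alike on both strands. They start 116, 58 and 44 bases before the gene's start and do not overlap. The 250 bases before the start are from RefSeq on GRCm38.p6, minus strand, chr3:95882229-95882478, with the E-boxes in capitals.
Ciart: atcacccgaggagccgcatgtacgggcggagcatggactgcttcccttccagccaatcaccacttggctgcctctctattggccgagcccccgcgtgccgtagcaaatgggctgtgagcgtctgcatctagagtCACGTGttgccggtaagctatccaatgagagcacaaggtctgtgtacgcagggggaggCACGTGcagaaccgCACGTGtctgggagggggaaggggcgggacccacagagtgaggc
Of 15 measured clock genes with a promoter entry, 4 held an E-box in that window (26.7%), namely Ciart, Cry1, Tef and Tspan4, against 1854 of 27025 genes in the table (6.86%). Usp2, Dbp and Arntl held none, which says only that these letters are not in this window.

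Wee1, a clock-controlled kinase that holds back mitosis, had 3.25, 6.53 and 3.04 in knockouts given HGF and 5.93, 3.13 and 6.46 in knockouts without HGF, against 3.25, 3.26 and 3.28 in controls given HGF and 3.30, 3.21 and 3.43 in controls without HGF. Its interaction was -0.85 with all arrays and -3.0 (-3.52 to -2.48, adjusted p = 0.00342) without the 2. Arntl, whose rhythm runs opposite to that of its targets, had 5.66, 2.82 and 5.41 in knockouts given HGF and 2.77, 5.76 and 2.59 in knockouts without HGF, against 5.38, 5.38 and 5.29 in controls given HGF and 5.53, 5.62 and 4.84 in controls without HGF. The 3 arrays high in Usp2 were the low ones in Arntl. The interaction of Arntl was 0.90 (-1.84 to 3.64) with all arrays and 2.83 (2.13 to 3.53, adjusted p = 0.0121) without the 2. Clock had 0.47 and 1.65 (adjusted p = 0.0183), and Nfil3 had 0.09 and 2.04 (adjusted p = 0.0281).

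Some clock genes differed in the controls as well. Dbp, an activator of D-box genes, had 5.09, 11.05 and 2.81 in knockouts given HGF and 10.72, 2.92 and 10.72 in knockouts without HGF, against 5.21, 2.61 and 3.55 in controls given HGF and 6.22, 5.91 and 7.50 in controls without HGF. Its control groups did not overlap either, and 3 knockout arrays exceeded every control. The interaction of Dbp was 0.95 (-6.29 to 8.19) with all arrays and -4.02 (-6.76 to -1.28, adjusted p = 0.222) without the 2. Tef had -0.25 and -2.46 (adjusted p = 0.0829). Nr1d1, the repressor REV-ERB alpha, ran the other way with 2.20 (0.28 to 4.11) and 1.2 (-0.40 to 2.80). Noct, a deadenylase-family protein with a strong liver rhythm, had 5.84, 7.26 and 8.37 in knockouts given HGF and 7.38, 8.83 and 7.86 in knockouts without HGF, against 9.45, 8.44 and 7.75 in controls given HGF and 5.41, 4.47 and 6.19 in controls without HGF. It was the clock-list gene with the smallest p over all arrays, with -4.06 (-6.23 to -1.88, adjusted p = 0.265), and -3.71 without the 2.

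**Figure D4:**
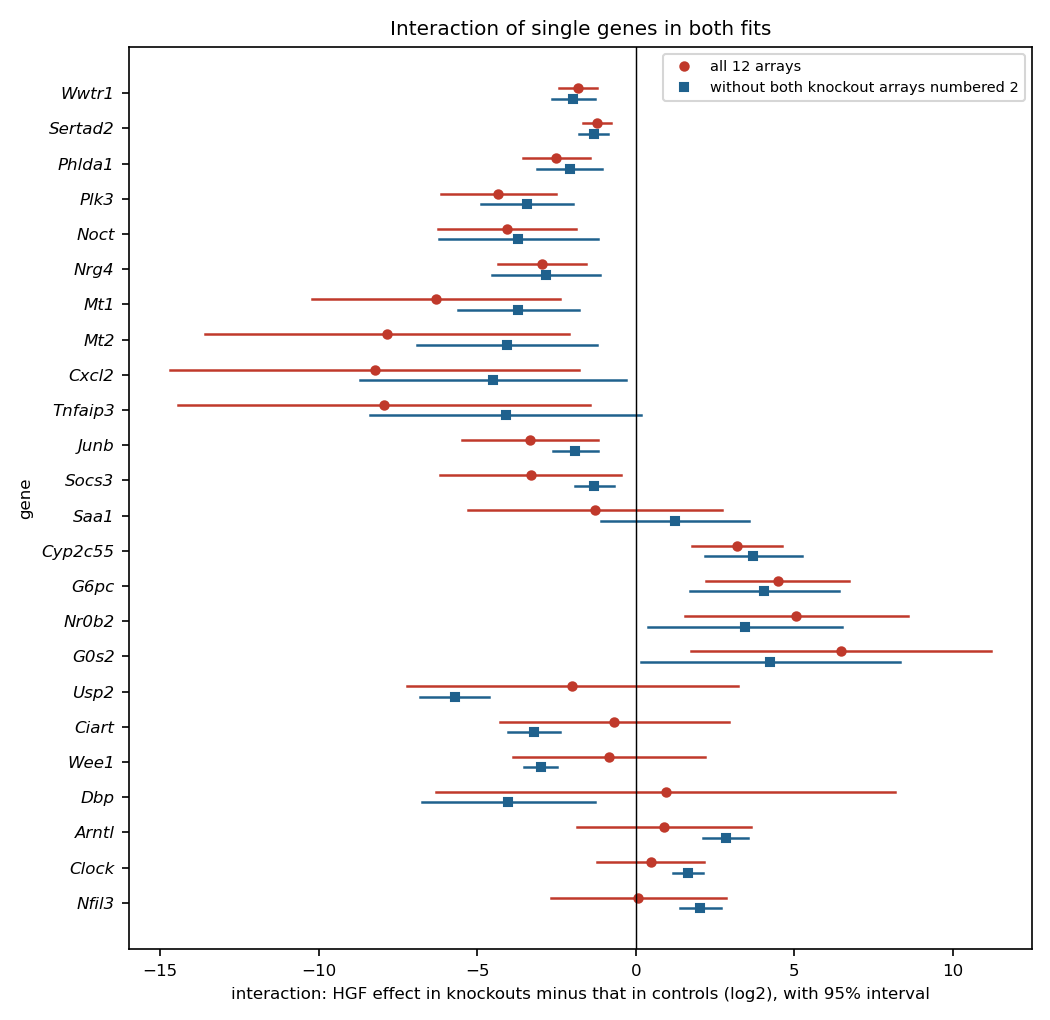
Interaction of 24 genes on the log2 scale, with 95% intervals, for all 12 arrays (red circles) and without both knockout arrays numbered 2 (blue squares). Wwtr1, Sertad2, Cyp2c55 and G6pc have similar values in both fits, Cxcl2 and Tnfaip3 shrink without the 2 arrays, and Usp2, Ciart, Wee1 and Arntl have wide intervals around 0 with all arrays and narrow ones away from 0 without them.

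Further calls of the 10-array fit shared the array pattern of the clock genes. Tubb2a, a beta tubulin, had 10.58, 8.24 and 10.88 in knockouts given HGF and 8.02, 10.64 and 7.44 in knockouts without HGF, against 9.78, 10.66 and 10.65 in controls given HGF and 10.55, 10.59 and 10.44 in controls without HGF. The 3 low arrays were again knockout array 2 with HGF and arrays 1 and 3 without. Its interaction was 1.37 (-1.24 to 3.97) with all arrays and 3.17 (2.26 to 4.07, adjusted p = 0.0183) without the 2. Slc20a1, a phosphate transporter, had -0.96 and -2.15 (adjusted p = 0.00856), Slc5a6, a transporter of biotin and pantothenate, had -0.48 and -2.09 (adjusted p = 0.0136), and Slc30a10, a manganese exporter, had 1.17 and 2.67 (adjusted p = 0.0296). Lonrf1, a RING finger gene, had -1.11 and -2.40 (adjusted p = 0.00523). Coq10b, which serves coenzyme Q function in mitochondria, had 6.34, 7.99 and 7.21 in knockouts given HGF and 8.21, 7.0 and 8.72 in knockouts without HGF, against 7.56, 7.09 and 6.93 in controls given HGF and 5.86, 5.56 and 6.33 in controls without HGF. It differed between the control groups too, and its interaction was negative in both fits, with -2.07 (unadjusted p = 0.0117) and -2.97 (adjusted p = 0.0381). Of the 24 calls, 9 had an unadjusted p under 0.05 and the same sign with all arrays.

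The summed levels of some cell type markers set a group apart. The summed intensity of 11 hepatocyte markers was 121389 to 126576 in knockouts given HGF and 122150 to 129104 in knockouts without HGF, against 122771 to 128308 in controls given HGF and 127177 to 131290 in controls without HGF, so that knockouts given HGF lay below controls without HGF, and none of the 11 had an interaction at an unadjusted p under 0.05. The sum of 16 sinusoidal endothelial markers was 2120 to 2630 in knockouts given HGF and 2044 to 2614 in knockouts without HGF, against 1881 to 1922 in controls given HGF and 2361 to 2426 in controls without HGF. Only the treated controls stood apart. Gpr182, a chemokine-scavenging receptor of sinusoidal endothelium, had 6.37, 6.24 and 5.90 in knockouts given HGF and 6.09, 5.88 and 6.31 in knockouts without HGF, against 5.39, 5.72 and 5.41 in controls given HGF and 6.49, 6.53 and 6.24 in controls without HGF. Its interaction was 0.99 (0.47 to 1.51, adjusted p = 0.265), and 0.84 without the 2 arrays. Tek, the angiopoietin receptor, had 0.76 and 0.79, and Lyve1, a hyaluronan receptor, had a negative one of -2.29 (-4.54 to -0.04) and -1.33 (-3.47 to 0.81). The sum of 12 stellate cell markers was 1839 to 2100 in knockouts given HGF and 2187 to 2650 in knockouts without HGF, against 1680 to 1872 in controls given HGF and 1604 to 1890 in controls without HGF, so that knockouts without HGF stood above the other groups. The part of these cells in the interactions was not tested. All 12 lymphocyte markers were below the filter. The sum of 15 Kupffer cell and macrophage markers overlapped between all groups, with 3909 to 5489 in knockouts given HGF and 3396 to 5188 in knockouts without HGF, against 4228 to 5602 in controls given HGF and 4279 to 6629 in controls without HGF.

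The remaining lists are given by the median interaction of their tested members, first with all arrays and then without the 2, beside 0.07 and 0.02 over all tested probe sets. It was -1.37 and -0.72 over the 4 tested genes of the ErbB list, which were Egfr, Nrg4, Errfi1 and Lrig1. Errfi1 and Lrig1 are regulators and not ErbB ligands or receptors. Growth arrest and p53 genes had -1.11 and -0.41 over 10, and survival and apoptosis genes had -0.60 and -0.37 over 11. The medians of tested members of these 3 lists were less negative in the second fit. Without the filter on low values, the ErbB median was -0.11 and -0.21 over 12 genes, more negative in the second fit. Growth arrest and p53 genes then had -0.33 and -0.23 over 15, and survival and apoptosis genes had -0.51 and -0.11 over 16. Matrix and stellate cell genes had -0.26 and -0.29 over 15, and genes of gluconeogenesis and insulin action had -0.20 and -0.48 over 11. Cytoskeleton genes had -0.19 and 0.09 over 17, and cell cycle genes had 0.36 and 0.52 over 6. ER stress and heat shock genes had 0.01 and 0.34, xenobiotic genes 0.05 and 0.13, and NRF2 and heme genes 0.16 and -0.02. Lipogenesis and fat oxidation genes had 0.17 and 0.01, and bile acid and sterol genes had 0.25 and 0.18. Hmox1, the heme oxygenase of the NRF2 list, lay far from its list with -3.23 (-6.68 to 0.23) and -1.0 (-2.81 to 0.81), and Cyp7a1, the rate-limiting enzyme of bile acid synthesis, had 0.73 (-2.69 to 4.15) with all arrays and -1.55 (-3.07 to -0.02) without the 2. Few members of the other marker lists passed the filter: 6 stellate cell genes had a median of -0.24 and -0.21, 2 erythroid genes 0.48 and 0.95, 1 cholangiocyte gene 1.45 and 1.14, and 1 acinar gene 0.27 and 0.12. The plot of 20 gene lists shows where each stands.

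**Figure D5:**
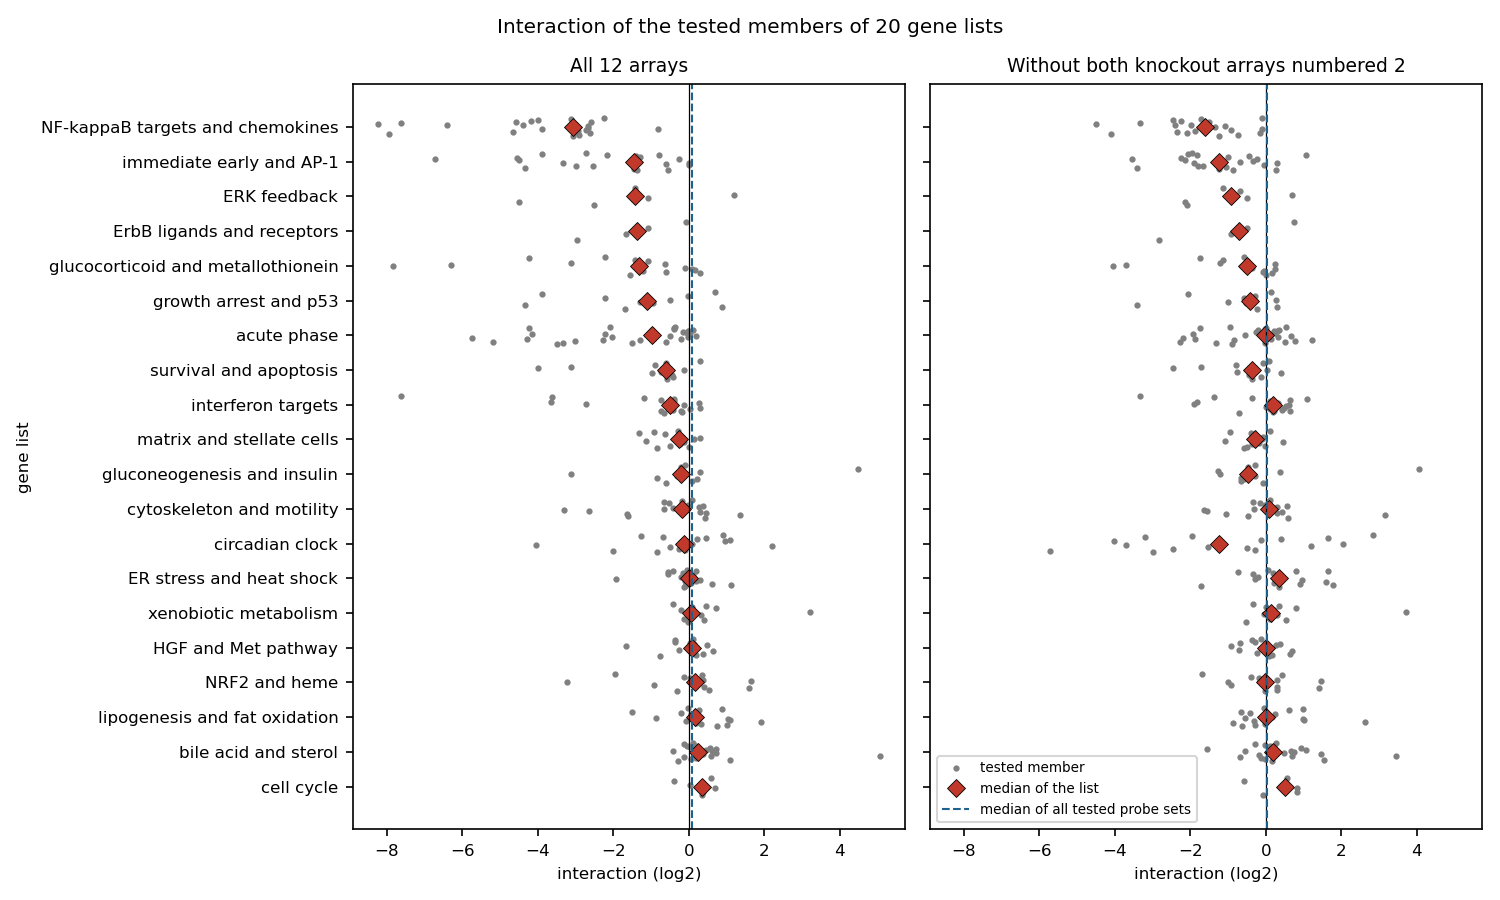
Interaction of the tested members of 20 gene lists on the log2 scale, as grey points, with the list median as a red diamond and the median of all tested probe sets as a dashed line, for all 12 arrays (left) and without both knockout arrays numbered 2 (right). The NF-kappaB list has a median of -3.07 on the left and -1.62 on the right, and the clock list has -0.12 on the left and -1.25 on the right.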

How the data were processed

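Per the labels' protocols, RNA of whole livers from 12 mice was hybridised to Affymetrix arrays, with an array for each mouse. The authors deposited linear intensities of probe sets. Per the submitters' processing notes these came from GCRMA, which corrects for background by probe composition and brings the arrays to a common distribution; no version of GCRMA is given. Of 16539 probe sets, 64 controls were left out, and 15780 of the other 16475 carried 1 gene symbol in the platform annotation. From the deposited intensities, log2(intensity + 1) was taken, and 6683 probe sets with at least 4 on at least 3 arrays were tested. The filter lets a gene pass through a single high group, so list counts are also given without it. A model with 4 group means was run in limma 3.58.1 (R 4.3.3), two-sided, with adjustment over all tested probe sets; a call is an adjusted p under 0.05. Differences near background are understated on this scale. The number of arrays, 3 in each group, limits the precision. The fit was tested on simulated data.

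The members and the 29 gene lists were chosen with earlier results of these data known. Named genes were Met and Hgf, the 12 of smallest p and 8 of largest value in each direction, members of the gene lists, and the calls of the fit without both knockout arrays numbered 2. A gene that this rule names is not reported here. Alternatives were each array left out, blocks by the numbers 1 to 3 of the arrays in a group, other filters, pseudocounts, normalization, array weights and variance settings. The main fit did not pair same-numbered arrays. Their deviations from the group means correlated at 0.12, -0.83 and -0.70 in knockouts and 0.10, 0.18 and 0.05 in controls. With 3 arrays in each group, these values cannot show whether the samples were paired. By the numbers in the array descriptions, each array without HGF came directly before the same-numbered array with HGF of its genotype. Whether these numbers give an order of processing is not known here. Promoters came from a RefSeq table on GRCm38.p6 and the motif search covered the 250 bases before each start.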

Additional observations from a re-analysis of the deposited data

Results flagged for a closer look

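The test of the difference between the 2 genotypes' HGF effects called 24 probe sets once both knockout arrays numbered 2 were left out, a choice made after their values were seen. Groups of 3 arrays are too small for a test of single stray arrays. The negative interactions, lower HGF effects in knockouts than in controls, were Usp2 with -5.72, Ciart with -3.22, Wee1 with -3.0, Coq10b with -2.97, Lonrf1 with -2.40, Slc20a1 with -2.15, Slc5a6 with -2.09, Wwtr1 with -1.96 and the decoy FGF receptor Fgfrl1 with -1.70. Smaller ones were Zfp275 with -1.54, Sertad2 with -1.33, the liver glycogen synthase Gys2 with -1.27 and the dynein regulator Ndel1 with -1.09. The positive ones were Tubb2a with 3.17, Arntl with 2.83, Slc30a10 with 2.67, a probe set without a gene symbol with 2.23, the actin-binding Ablim3 with 2.06, Nfil3 with 2.04 and the mitochondrial carrier Slc25a30 with 1.95. Hdhd3 with 1.79, the membrane trafficking protein Mal2 with 1.74, Clock with 1.65 and the LIM-domain protein Crip2 with 1.45 completed them. With all 12 arrays none of the 24 was called.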

How the results depend on the processing

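The interaction gave 0 calls with all arrays and 0 to 1 with any 1 array left out; the single calls were Bach1 and Csrp2. Array weights gave 104 calls, 103 of which had an unadjusted p under 0.05 with equal weights and 6 of which were among the 24 calls without both knockout arrays numbered 2. Leaving out both knockout arrays numbered 3 gave 1 call, and both numbered 1 gave 0. A replicate block by genotype and number gave 0 calls of the interaction with 450 probe sets at an unadjusted p under 0.05, and a block of 3 numbers over both genotypes gave 0 with 602. The HGF effect in knockouts had 0 calls in every setting but 1, with 278 without both knockout arrays numbered 2. The HGF effect in controls, 27 calls, ranged from 0 to 317 with 1 array left out. It had 0 under either replicate block, 0 without the 2 arrays whose description carries an added letter, 0 without both control arrays of any number, and 7, 545 and 107 without both knockout arrays numbered 1, 2 and 3. No filter gave 13, a pseudocount of 16 gave 41, array weights 1279, 1 variance weight per genotype 775 and the 2 control groups alone 801. The cause of these shifts was not tested. Without both knockout arrays numbered 2, 78 of 376 named genes had an interaction of opposite sign. The small groups and the disagreement among knockout arrays limit what the interaction can show.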
